A study of Mus musculus with 17 samples.

Results

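The genes of glucose entry and metabolism described here are Slc2a2, Slc2a1, Hk2, Pfkl, Pfkm, Pdha1, Pcx, Gpd2 and Glud1. They were followed in pancreatic islets of mice that lack Men1, Rbp2 or both in beta cells. Members were taken by symbol: a probe set counted when its annotation names exactly 1 of the 9 symbols, and each symbol had 1 such probe set. The 9 genes are among 19938 genes that could be tested, and no filter on low values was applied, so all 9 entered every comparison.

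Total RNA of islets from 2-month-old untreated mice had been labelled with biotin and measured on 17 arrays in 5 groups. Wild-type mice without a transgene gave 3 arrays (wt), and mice with the Cre transgene alone gave 3 (RIP-Cre). The knockouts were Men1flf, RIP-Cre (3 arrays, the Men1 knockout), Rbp2flf, RIP-Cre (4 arrays, the Rbp2 knockout) and Men1flf, Rbp2flf, RIP-Cre (4 arrays, the double knockout). RIP-Cre is Cre recombinase under the rat insulin promoter, which acts in beta cells, so the other cells of an islet are expected to keep their alleles, and all 3 knockout groups carry the transgene that the RIP-Cre group carries too. The labels number the arrays of a group and do not say that they come from separate animals, so the p-values reflect only how much these arrays vary, which may be technical.

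Glucose enters mouse beta cells mainly through GLUT2, the low-affinity transporter encoded by Slc2a2. It is then phosphorylated and broken down through phosphofructokinase to pyruvate, which mitochondria take up for the citric acid cycle. The ATP made there closes potassium channels and sets off insulin secretion. Some genes of the same steps, such as the high-affinity hexokinases, are kept low in mature beta cells. Men1 encodes menin, a subunit of complexes that methylate lysine 4 of histone H3, and Rbp2, also named Kdm5a, encodes a demethylase of the same residue, a mark found at promoters and often at promoters rich in CG dinucleotides.

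Promoter windows of the 9 genes were taken from RefSeq (GRCm38.p6), each holding 250 bases before and 50 bases after an annotated start, and all 9 genes had at least 1 of them, 14 in all. The windows of Slc2a2, Slc2a1 and Pdha1 are printed because these are the called genes with a single annotated start and because they lie far apart in CG content. Each is written 5′ to 3′ along the gene's own strand, with every CG dinucleotide in capitals. The Slc2a2 window is chr3:28697653-28697952 on the plus strand, that of Slc2a1 is chr4:119108495-119108794 on the plus strand, and that of Pdha1 is chrX:160138381-160138680 on the minus strand.
Slc2a2: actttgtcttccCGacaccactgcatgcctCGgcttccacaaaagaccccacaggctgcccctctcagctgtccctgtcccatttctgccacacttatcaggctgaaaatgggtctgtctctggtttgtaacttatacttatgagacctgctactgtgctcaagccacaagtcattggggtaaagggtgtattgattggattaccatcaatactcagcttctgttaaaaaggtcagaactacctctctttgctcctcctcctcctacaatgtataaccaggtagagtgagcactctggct
Slc2a1: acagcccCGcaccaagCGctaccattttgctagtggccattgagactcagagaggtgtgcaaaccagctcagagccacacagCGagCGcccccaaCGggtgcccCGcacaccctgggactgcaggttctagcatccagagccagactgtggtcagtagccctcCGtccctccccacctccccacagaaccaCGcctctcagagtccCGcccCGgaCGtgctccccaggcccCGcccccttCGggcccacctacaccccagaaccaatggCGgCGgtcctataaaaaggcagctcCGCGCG
Pdha1: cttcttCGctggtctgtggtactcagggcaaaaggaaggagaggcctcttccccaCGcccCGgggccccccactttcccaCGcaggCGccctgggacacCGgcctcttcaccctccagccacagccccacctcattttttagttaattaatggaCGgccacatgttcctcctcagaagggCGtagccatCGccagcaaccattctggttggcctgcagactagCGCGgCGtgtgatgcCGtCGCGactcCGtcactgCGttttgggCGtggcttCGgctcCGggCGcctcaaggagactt
The Slc2a2 window held 2 CG dinucleotides. Among all 32851 windows, 23.3% held 2 or fewer, and the median was 7. Slc2a1 had 18 and Pdha1 had 21, and 29.7% of all windows held at least 18. The motif CCGCCC, which the DNA-binding domain of Rbp2 recognises, was searched on both strands. It was found in 6 of the 14 windows, at Slc2a1, Pcx, Gpd2, Pfkl, Glud1 and Hk2, and in 35.7% of all windows, but not in those of Slc2a2, Pfkm or Pdha1. CACGTG, a palindrome bound by basic helix-loop-helix factors, was in 1 window each of Pcx and Pfkm (7.2% of all windows). TATAAA, the letters of a TATA box, was in that of Slc2a1 (13.6% of all windows), where it lay 28 bases after the annotated start. Such matches describe the letters of these windows and are no evidence of binding.

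The values are log2 intensities. Beside the members, Men1 was read at 9.31 to 9.49 in RIP-Cre, 8.14 to 8.43 in the Men1 knockout and 8.46 to 8.87 in the double knockout. The lower values in these 2 knockouts follow the labels for the Men1 allele. In the Rbp2 knockout, whose label names no Men1 allele, Men1 was read at 10.05 to 10.24. This was 0.73 ± 0.11 above RIP-Cre (limma adjusted p = 0.00359), and its cause was not tested. Kdm5a did not pass the test in the Rbp2 knockout (log2 fold change -0.22, limma adjusted p = 0.148) or in the double knockout (-0.02, limma adjusted p = 0.896). This probe set therefore does not check the Rbp2 label, and whether it lies in the deleted part is not known here. Groups without Rbp2 are named so below by their labels alone. The 75th percentile of all probe sets was 8.92 to 8.95 on every array, while the median of the tested genes was 7.97 to 8.16 on the 6 control arrays and 7.82 to 7.98 on the 11 knockout arrays. In bulk islets, more beta cells and more RNA per beta cell cannot be told apart. One array stands apart for the results below: RIP-Cre array 3 had the highest median, the highest mean of acinar markers (10.20) and the lowest mean of beta cell markers (11.66) of the 17.

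Of the 9 genes, 4 were higher than in RIP-Cre in at least 1 knockout and none was lower. Slc2a2 and Pfkm were higher in both groups without Men1, Pdha1 was higher in all 3 knockout groups, and Slc2a1 was higher in the double knockout. A gene is called here when its limma p, adjusted over all 19938 genes by Benjamini-Hochberg, was under 0.05. In the Men1 knockout against RIP-Cre 3 members were called, all higher, where 53.5% of all genes were called, 15.7% higher and 37.8% lower. The Rbp2 knockout had 1 called member (13.4% of all genes called, 6.7% higher and 6.7% lower), and the double knockout had 4 (33.7% of all genes called, 13% higher and 20.6% lower). RIP-Cre against wt had no called member and no called gene (0% of genes; 552 genes at an unadjusted p under 0.05). The 3 comparisons share the RIP-Cre arrays, so their values are given side by side and not as independent repeats.

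**Figure D1:**
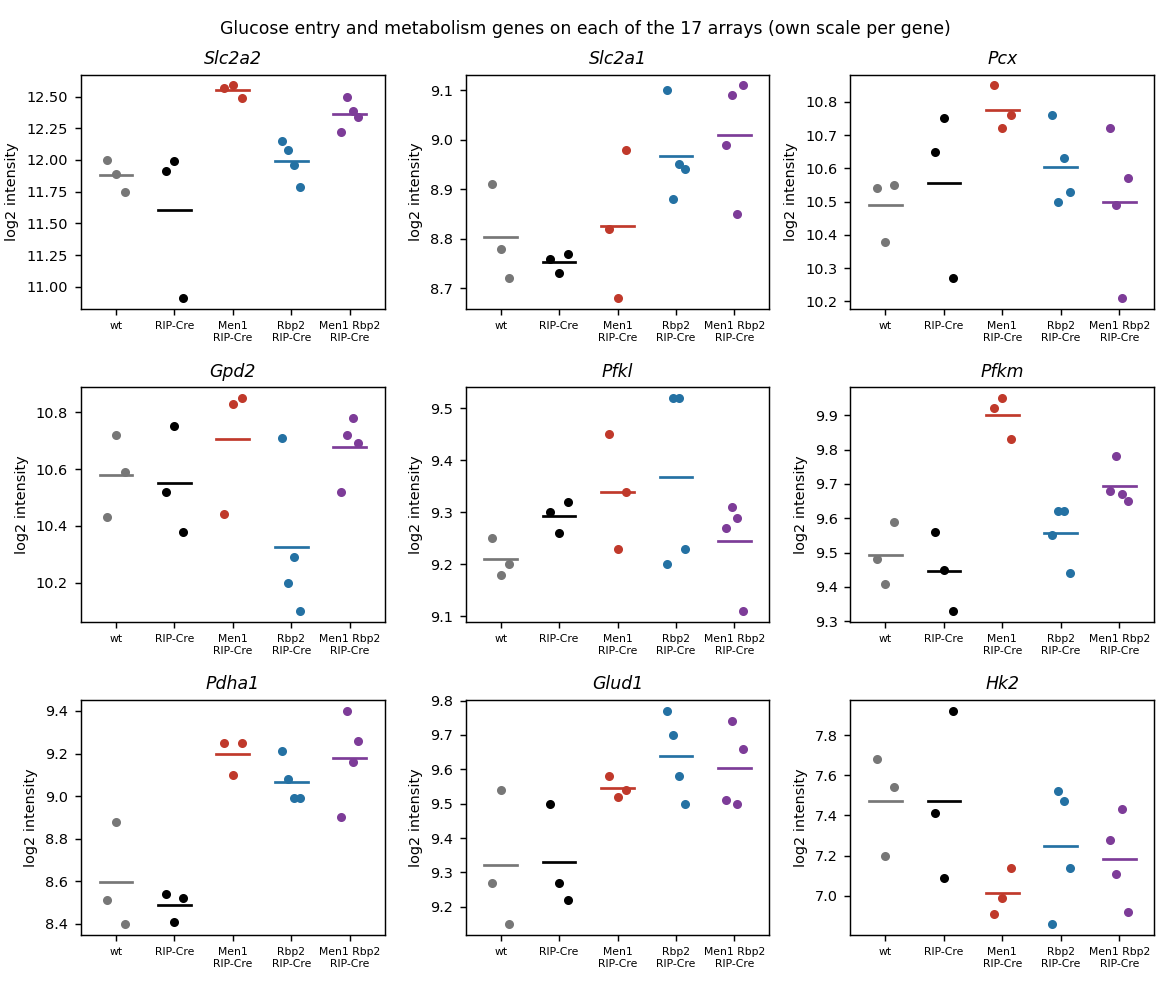
Each panel plots the log2 intensity of 1 gene on its own vertical scale, with 1 point per array and a bar at the group mean, for the 5 groups of 3 or 4 arrays, named by genotype on the axis. The Pdha1 points of all knockout arrays lie at 8.90 or above while the RIP-Cre points lie at 8.41 to 8.54, and RIP-Cre array 3 stands alone at 10.91 for Slc2a2.

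Slc2a2, the GLUT2 gene, is a defining gene of mouse beta cells. Its values were 12.00, 11.89 and 11.75 in wt, 11.91, 11.99 and 10.91 in RIP-Cre, and 12.57, 12.59 and 12.49 in the Men1 knockout. The Rbp2 knockout gave 12.15, 12.08, 11.96 and 11.79, and the double knockout gave 12.22, 12.50, 12.39 and 12.34. Every array without Men1 was above every control array, and the Rbp2 knockout arrays overlapped both control groups. The rise over RIP-Cre on the log2 scale was 0.95 ± 0.20 (SE; 1.93-fold, limma adjusted p = 0.00213) in the Men1 knockout and 0.76 ± 0.19 (1.69-fold, limma adjusted p = 0.00896) in the double knockout. In the Rbp2 knockout the value of 0.39 ± 0.19 was not called (limma adjusted p = 0.133). The difference of the Rbp2 knockout from the Men1 knockout, -0.555 ± 0.187, was not called either (limma adjusted p = 0.0607). Against wt, Slc2a2 was called in the Men1 knockout (0.67, limma adjusted p = 0.0129) and not in the double knockout (0.48, limma adjusted p = 0.0593). Without RIP-Cre array 3 the changes were 0.60 (limma adjusted p = 0.00357), 0.41 (limma adjusted p = 0.0293) and 0.04 (limma adjusted p = 0.835) in the Men1 knockout, the double knockout and the Rbp2 knockout, so that single control array moved both called values by more than 1.5 times while the calls held.

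Slc2a1 encodes GLUT1, the high-affinity transporter that supplies most tissues with glucose. It was read at 8.76, 8.73 and 8.77 in RIP-Cre and at 8.99, 9.09, 8.85 and 9.11 in the double knockout. The Men1 knockout gave 8.82, 8.68 and 8.98 and the Rbp2 knockout gave 9.10, 8.88, 8.95 and 8.94, against 8.91, 8.78 and 8.72 in wt. The RIP-Cre values lay close together, and both groups without Rbp2 lay above them, while the Men1 knockout overlapped them and both groups without Rbp2 overlapped wt. The double knockout was 0.26 ± 0.09 higher than RIP-Cre on the log2 scale (1.20-fold, limma adjusted p = 0.0426). The Rbp2 knockout was 0.21 ± 0.09 higher, which did not pass the test (limma adjusted p = 0.105), and the Men1 knockout differed by 0.07 ± 0.10 (limma adjusted p = 0.533). Against wt the double knockout was not called (0.21, limma adjusted p = 0.093). The call in the double knockout was lost when any 1 of 9 arrays was left out, with limma adjusted p up to 0.114. These arrays were RIP-Cre 1, 2 and 3, double knockout 1, 2 and 4, Men1 knockout 1, and Rbp2 knockout 3 and 4.

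Hk2 encodes hexokinase 2, a high-affinity hexokinase of muscle and fat that is low in mature beta cells. It gave 7.41, 7.09 and 7.92 in RIP-Cre, 7.68, 7.20 and 7.54 in wt, and 6.91, 6.99 and 7.14 in the Men1 knockout. The highest value, 7.92, again came from RIP-Cre array 3. The difference of -0.46 ± 0.21 in the Men1 knockout was not called (limma adjusted p = 0.0674), nor were those of -0.23 ± 0.19 in the Rbp2 knockout and -0.29 ± 0.19 in the double knockout (limma adjusted p = 0.382 and 0.237). When all genes were split into 10 groups by mean intensity, those in the group that holds Hk2 had a median change of -0.37 in the Men1 knockout, close to that of Hk2.

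Phosphofructokinase makes the committed step of glycolysis, and its muscle-type and liver-type subunits, Pfkm and Pfkl, were read by separate probe sets. Pfkm was read at 9.56, 9.45 and 9.33 in RIP-Cre, 9.48, 9.41 and 9.59 in wt, and 9.92, 9.95 and 9.83 in the Men1 knockout. The Rbp2 knockout gave 9.55, 9.62, 9.62 and 9.44, and the double knockout gave 9.68, 9.78, 9.67 and 9.65. The Men1 knockout arrays were above all other arrays, and the double knockout arrays lay between them and the rest without overlap. Against RIP-Cre, Pfkm rose by 0.45 ± 0.09 in the Men1 knockout (1.37-fold, limma adjusted p = 0.00132) and by 0.25 ± 0.08 in the double knockout (1.19-fold, limma adjusted p = 0.0306), and the value in the Rbp2 knockout was 0.11 ± 0.08 (limma adjusted p = 0.314). Against wt, Pfkm was called in the Men1 knockout (0.41, limma adjusted p = 0.0025) and not in the double knockout (0.20, limma adjusted p = 0.0691). The call in the double knockout was lost without any 1 of RIP-Cre 2, RIP-Cre 3, double knockout 2 or double knockout 4, with limma adjusted p from 0.0504 to 0.149. The Rbp2 knockout was 0.34 ± 0.08 lower than the Men1 knockout (limma adjusted p = 0.0123), which is the test of the difference between the single knockouts. Pfkm was the only member called in that test.

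Pfkl stayed within a narrow band, from 9.11 to 9.52 over the 17 arrays. Its changes were 0.05 ± 0.10 in the Men1 knockout, 0.07 ± 0.10 in the Rbp2 knockout and -0.05 ± 0.10 in the double knockout, with limma adjusted p of 0.704, 0.566 and 0.697. Within the Rbp2 knockout the arrays split into 9.52 and 9.52 against 9.20 and 9.23, a spread wider than any difference between group means. No direction can be given for this subunit at this spread, and the difference between Pfkm and Pfkl was not itself tested.

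Pdha1 encodes the E1 alpha subunit of pyruvate dehydrogenase, the enzyme that turns pyruvate into acetyl-CoA, and it was the only member called in all 3 knockout comparisons. The RIP-Cre values were 8.54, 8.41 and 8.52 and the wt values 8.51, 8.88 and 8.40. The Men1 knockout gave 9.25, 9.10 and 9.25, the Rbp2 knockout gave 9.21, 9.08, 8.99 and 8.99, and the double knockout gave 8.90, 9.40, 9.16 and 9.26. All 11 knockout arrays were above all 6 control arrays, and the 3 knockout groups overlapped each other. The log2 fold changes against RIP-Cre were 0.71 ± 0.13 (1.64-fold, limma adjusted p = 0.00104) in the Men1 knockout, 0.58 ± 0.12 (1.49-fold, limma adjusted p = 0.0152) in the Rbp2 knockout and 0.69 ± 0.12 (1.61-fold, limma adjusted p = 0.00231) in the double knockout. Against wt they were 0.60, 0.47 and 0.58 (limma adjusted p = 0.00263, 0.0322 and 0.0052). In the Rbp2 knockout the call was lost without RIP-Cre array 3 (0.59, limma adjusted p = 0.0568) or without Rbp2 knockout array 1 (0.53, limma adjusted p = 0.0501).

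The interaction compares the Rbp2 effect in the absence of Men1 with the Rbp2 effect in its presence. Pdha1 was 0.58 higher with Rbp2 lost in RIP-Cre islets and 0.02 lower with Rbp2 lost in Men1 knockout islets. The interaction of -0.60 ± 0.17 did not pass the test (limma adjusted p = 0.0549). It passed without wt array 2 or without double knockout array 2 (limma adjusted p = 0.0351 and 0.0384). Calls over all genes for the interaction were unsteady too: from 675 they rose to 2033 without wt array 2 and fell to 36 without RIP-Cre array 3. No member was called for this term, where 3.39% of all genes were called, 1.78% higher and 1.61% lower. The values for Slc2a2 and Pfkm were -0.58 ± 0.26 and -0.32 ± 0.12 (limma adjusted p = 0.127 and 0.0814), the other members lay between -0.33 and 0.40, and 3 of the 9 had an unadjusted p under 0.05. Nor was any member called between the double knockout and the Men1 knockout (1.67% of all genes called, 1.1% higher and 0.567% lower) or between the double knockout and the Rbp2 knockout (1.2%, 0.582% higher and 0.617% lower), with 2 members at an unadjusted p under 0.05 in each.

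Pcx encodes pyruvate carboxylase, which feeds pyruvate into the citric acid cycle as oxaloacetate and is abundant in beta cells. It was read at 10.65, 10.75 and 10.27 in RIP-Cre and at 10.85, 10.72 and 10.76 in the Men1 knockout, with the lowest control value again on RIP-Cre array 3. Its changes were 0.22 ± 0.13 in the Men1 knockout, 0.05 ± 0.13 in the Rbp2 knockout and -0.06 ± 0.13 in the double knockout, none called (limma adjusted p = 0.167, 0.781 and 0.718). The double knockout spread from 10.21 to 10.72 and covered most of the range of the other groups.

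Gpd2 encodes the mitochondrial glycerol-3-phosphate dehydrogenase, the step that passes cytosolic NADH to the respiratory chain and is active in beta cells. It was read at 10.52, 10.75 and 10.38 in RIP-Cre, and 3 of the 4 Rbp2 knockout arrays, at 10.20, 10.29 and 10.10, lay below all control arrays while the other, at 10.71, did not. The change was -0.22 ± 0.14 in the Rbp2 knockout, 0.16 ± 0.15 in the Men1 knockout and 0.13 ± 0.14 in the double knockout (limma adjusted p = 0.245, 0.388 and 0.485).

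Glud1 encodes glutamate dehydrogenase, the leucine-activated enzyme through which amino acids promote insulin secretion. RIP-Cre gave 9.50, 9.27 and 9.22, and wt gave 9.27, 9.54 and 9.15. The Men1 knockout gave 9.58, 9.52 and 9.54, the Rbp2 knockout gave 9.77, 9.70, 9.58 and 9.50, and the double knockout gave 9.51, 9.74, 9.50 and 9.66. The knockout arrays were all at 9.50 or above, the level of the highest RIP-Cre array, and 1 wt array reached 9.54. The changes of 0.22 ± 0.11, 0.31 ± 0.11 and 0.27 ± 0.11 in the Men1 knockout, the Rbp2 knockout and the double knockout were not called (limma adjusted p = 0.113, 0.0597 and 0.0571). With all 6 control arrays pooled, both groups without Rbp2 passed (0.31, limma adjusted p = 0.0179, and 0.28, limma adjusted p = 0.0165).

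**Figure D2:**
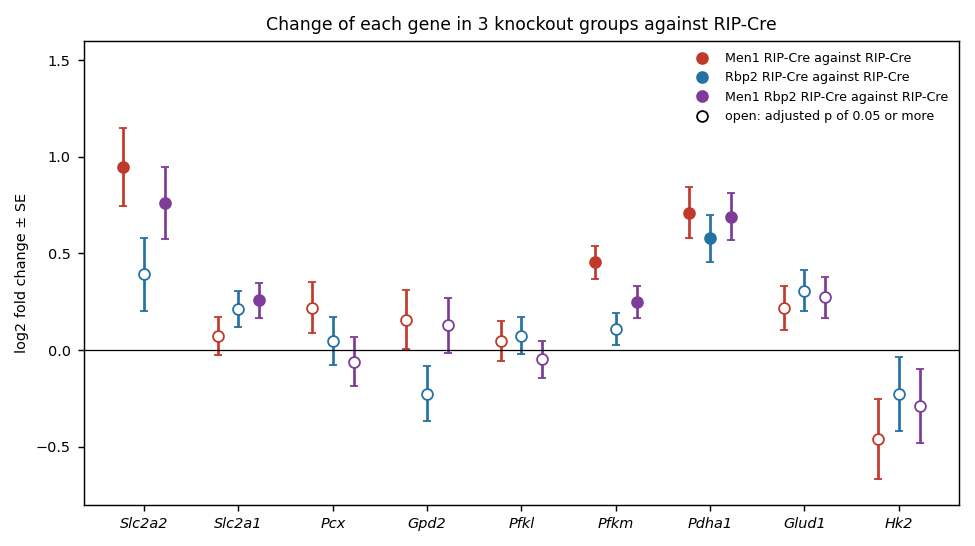
The vertical axis is the log2 fold change against RIP-Cre with its standard error, for the 9 genes in the 3 knockout groups, and filled points have a limma adjusted p under 0.05. Pdha1 is filled in all 3 groups at 0.58 to 0.71, Slc2a2 and Pfkm in both groups without Men1, and Hk2 lies below 0 with open points.

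Ordered by group mean, Slc2a2, Pfkm and Pdha1 shared 1 order: the Men1 knockout, the double knockout, the Rbp2 knockout, wt and RIP-Cre. Of the neighbours in that order, the Rbp2 knockout and wt differed for Pdha1 (0.47, limma adjusted p = 0.0322), and no other neighbouring pair of these 3 genes passed the test. Over the 9 genes that was the only neighbouring pair past the threshold, although for Slc2a2 the double knockout and the Rbp2 knockout arrays did not overlap (0.37, limma adjusted p = 0.429). Slc2a1 had the double knockout first and the Rbp2 knockout second, and Glud1 had the Rbp2 knockout first and the double knockout second.

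The median change of the members was 0.22 with Men1 lost, 0.11 with Rbp2 lost and 0.25 with both lost. The members were chosen with earlier results of these data known, so these medians only describe them. Over all 19938 genes these medians were -0.23, -0.13 and -0.15. The shift of all genes depended on intensity: in the Men1 knockout the lowest of the 10 intensity groups had a median change of -0.43 and the highest had 0.20, with 40.7% of its genes called higher. Apart from Hk2, the members lie in intensity groups with medians of 0.007, 0.063 or 0.203 in that knockout. Against the median of their own intensity group, Slc2a2 was 0.74 higher, Pdha1 0.70 higher and Pfkm 0.39 higher in the Men1 knockout. Pdha1 was 0.55 above its group in the Rbp2 knockout and 0.68 above it in the double knockout, where Slc2a2 was 0.55 and Slc2a1 0.24 above theirs. Pcx and Gpd2, in the highest intensity group with Slc2a2, were within 0.05 of its median in the Men1 knockout. Below it, Gpd2 stood at -0.41 from that median in the Rbp2 knockout and Pcx at -0.27 in the double knockout.

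**Figure D3:**
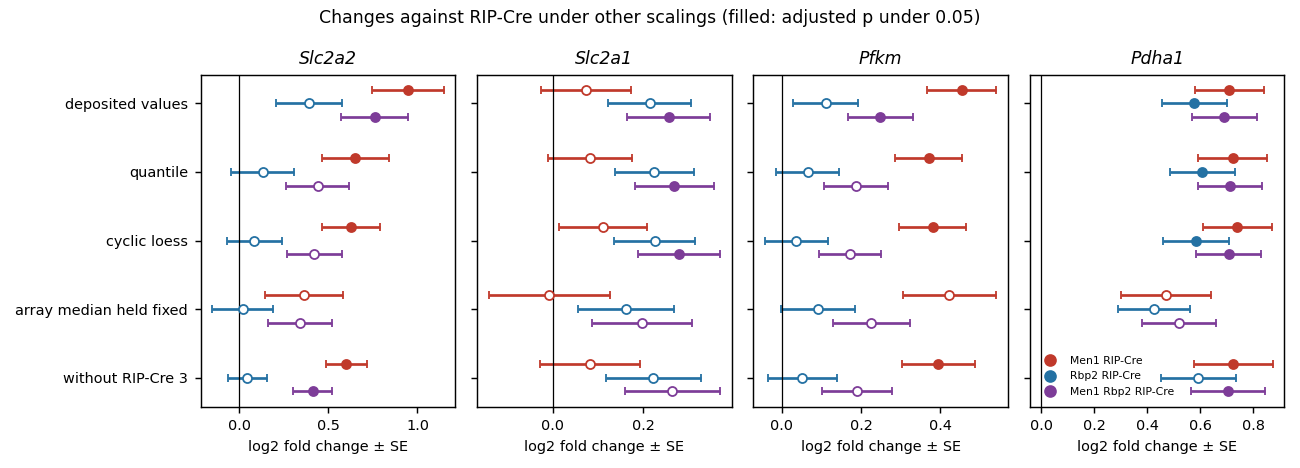
The horizontal axis of each panel is the log2 fold change against RIP-Cre with its standard error, for Slc2a2, Slc2a1, Pfkm and Pdha1 in the 3 knockout groups, under the deposited values, cyclic loess and quantile normalization, a fit with the array median held fixed, and the values without RIP-Cre array 3. Filled points have a limma adjusted p under 0.05. Pdha1 stays filled under both normalizations, and all points are open with the array median as a covariate.

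The scaling of the arrays bears on all of these changes. Cyclic loess normalization moved the median change of all genes from -0.23 to -0.05 in the Men1 knockout, and turned a split of 3126 higher and 7534 lower calls into 3517 and 3671. Under it Slc2a2 was 0.63 higher in the Men1 knockout and called, and 0.42 higher in the double knockout and not called (limma adjusted p = 0.0554). Pfkm in the double knockout was not called either (0.17, limma adjusted p = 0.116), while Pdha1 kept its 3 calls. Quantile normalization gave 3144 higher and 5462 lower calls and lost the same 2 calls in the double knockout, Slc2a2 (0.44, limma adjusted p = 0.0719) and Pfkm (0.19, limma adjusted p = 0.0865). With the array median as a covariate, which differs between control and knockout arrays and so takes up part of the difference between groups, no member was called, and 396, 42 and 280 of all genes were called in the Men1 knockout, the Rbp2 knockout and the double knockout. The signs of the 8 called changes stayed positive under these 3 alternatives. The Pdha1 interaction was -0.62 under quantile and -0.62 under cyclic loess normalization (limma adjusted p = 0.0572 and 0.06). With the covariate it was -0.38 (limma adjusted p = 0.69).

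The other genes of glucose metabolism were read from 8 lists of 102 genes, of which 91 were measured. In the Men1 knockout 40 were called higher and 15 lower, in the Rbp2 knockout 27 higher and 1 lower, and in the double knockout 37 higher and 9 lower. Over all genes 15.7% were called higher and 37.8% lower, 6.7% and 6.7%, and 13% and 20.6%. The share called higher depended on intensity, from 0.953% in the lowest intensity group to 40.7% in the highest in the Men1 knockout. The median change of the 91 genes was 0.22, 0.20 and 0.25, beside medians of all genes below 0. Without RIP-Cre array 3 the counts were 37 higher and 4 lower, 6 higher and 0 lower and 21 higher and 3 lower. Calls over all genes then fell from 10660 to 6174, from 2672 to 223 and from 6716 to 2371. Cyclic loess normalization gave 40 and 9, 22 and 0, and 33 and 6 of the listed genes. With the array median as a covariate 4, 1 and 7 genes were called. Of the 55, 28 and 46 genes called on the deposited values, 42, 19 and 33 were also called after cyclic loess normalization.

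The list of pyruvate entry and fate holds the other subunits and the regulators of pyruvate dehydrogenase. Of its 19 measured genes, 9 were higher and 2 lower in the Men1 knockout, 5 and 0 in the Rbp2 knockout, and 8 and 1 in the double knockout. Pdhb, the E1 beta subunit, was 0.67 ± 0.13, 0.57 ± 0.12 and 0.66 ± 0.12 higher in the Men1 knockout, the Rbp2 knockout and the double knockout and was called in each (limma adjusted p = 0.00127, 0.0151 and 0.00245). Pdp1, a phosphatase that activates the complex, was also called in each (0.47, 0.30 and 0.56), and so was Pdk2, a kinase that inactivates it (0.96, 0.50 and 0.95). Pdk4, another such kinase, was lower in the groups without Men1 (-1.27 and -0.92, limma adjusted p = 0.000359 and 0.00351) and not called in the Rbp2 knockout (-0.10, limma adjusted p = 0.69). The double knockout and the Rbp2 knockout differed for both kinases, by 0.45 for Pdk2 and -0.82 for Pdk4 (limma adjusted p = 0.0388 and 0.0228). Mpc1, a subunit of the mitochondrial pyruvate carrier, and Dld, the E3 subunit, were called in the groups without Men1 (0.98 and 0.80 for Mpc1, 0.66 and 0.42 for Dld) and not in the Rbp2 knockout (0.49 and 0.27, limma adjusted p = 0.0693 and 0.0987). Pdhx, the E3-binding protein, was called in the Men1 knockout (0.49) and not in the Rbp2 or double knockout (0.16 and 0.21, limma adjusted p = 0.232 and 0.107). Dlat, the E2 subunit, was not called in any of the 3 (0.04, 0.02 and 0.03), nor were the kinase genes Pdk1 (0.25, -0.17 and -0.05) and Pdk3 (0.20, 0.10 and 0.09).

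**Figure D4:**
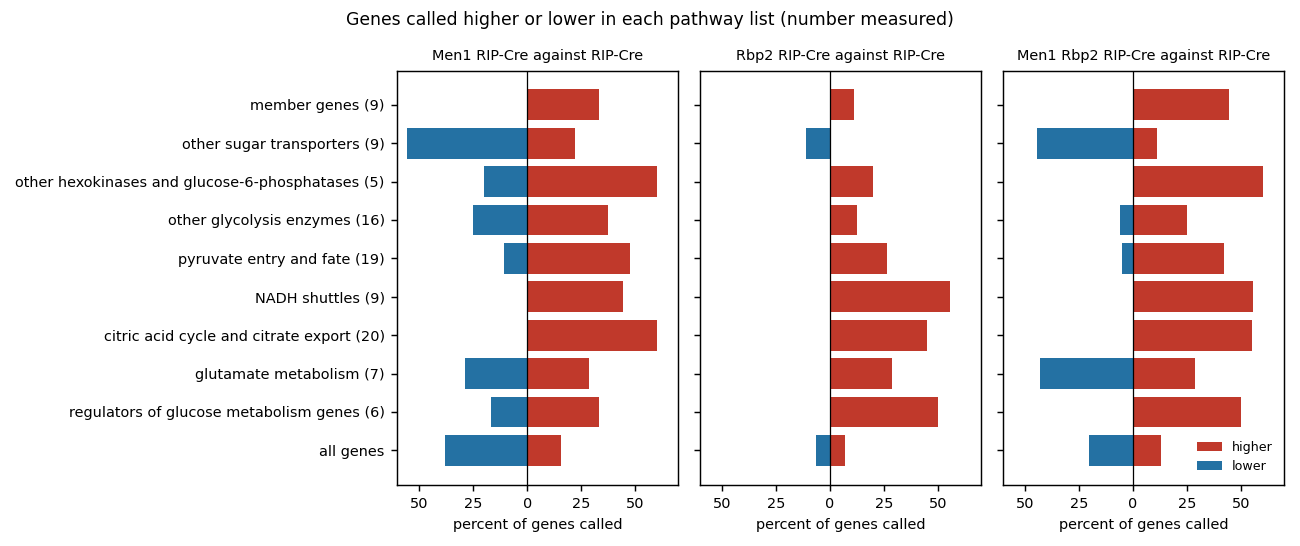
Bars give the percent of the measured genes of each list that were called higher (to the right) or lower (to the left) against RIP-Cre in each knockout group, with the number measured in parentheses and all genes at the bottom. On the deposited values, the citric acid cycle list has 12, 9 and 11 of 20 genes higher and none lower. The sugar transporter list has more genes lower than higher in each panel. Across all genes, calls at low intensity were also mostly lower in each knockout group.

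On the deposited values, the citric acid cycle and citrate export list had 12 of 20 measured genes higher in the Men1 knockout, 9 in the Rbp2 knockout and 11 in the double knockout, and 0 lower in all 3. Its examples include Slc25a1, the mitochondrial citrate carrier (0.80, 0.68 and 0.89, called in each), and Sdhd, a subunit of succinate dehydrogenase (0.54, 0.35 and 0.70, also called in each). Idh3b, a subunit of NAD-dependent isocitrate dehydrogenase, was the only listed gene called between the double knockout and the Men1 knockout (0.40, limma adjusted p = 0.019). Under quantile and cyclic loess normalization Idh2 was called lower in the Men1 knockout (-0.30 and -0.28, limma adjusted p = 0.0326 and 0.0356). Cyclic loess normalization lost the calls of Idh3g against RIP-Cre in all 3 knockouts (limma adjusted p = 0.502, 0.23 and 0.105). In the Rbp2 knockout it also lost Idh3b, Ogdh and Sdhb (limma adjusted p = 0.118, 0.131 and 0.0753). Of 9 genes of the NADH shuttles, 4, 5 and 5 were higher and 0 lower, in the Men1, Rbp2 and double knockout. Mdh1, the cytosolic malate dehydrogenase, was called in the Rbp2 and double knockouts (0.97 and 0.62) and not in the Men1 knockout (0.41, limma adjusted p = 0.0931), and the call in the double knockout was lost under cyclic loess normalization (0.43, limma adjusted p = 0.0665). Slc25a11, the 2-oxoglutarate carrier, was called in the groups without Men1 (0.86 and 0.65) and not in the Rbp2 knockout (0.35, limma adjusted p = 0.112).

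Steps near the uptake of glucose went both ways. Of 9 other sugar transporters 2 were higher and 5 lower in the Men1 knockout, 0 and 1 in the Rbp2 knockout, and 1 and 4 in the double knockout. Slc2a3, the GLUT3 gene, was lower in all 3 (-0.77, -0.38 and -0.60), although in the Rbp2 knockout it was not called under cyclic loess normalization (-0.19, limma adjusted p = 0.128). Slc2a3, Slc2a10, Slc2a12 and Slc5a1, called lower in the Men1 knockout, had RIP-Cre means of 7.46, 7.96, 7.57 and 7.19. In the intensity groups from 6.71 to 7.96, 58.3% to 58.6% of all genes were called in that knockout, with 3.41% to 11.4% higher. Under cyclic loess normalization Slc2a12 and Slc5a1 were not called there (-0.42 and -0.36, limma adjusted p = 0.0624 and 0.255). Slc2a5, the fructose transporter, was higher in the groups without Men1 (0.65 and 0.55) and not called in the Rbp2 knockout (0.36, limma adjusted p = 0.0549). G6pc2, the islet glucose-6-phosphatase, was higher in all 3, by 1.35 ± 0.17, 0.91 ± 0.16 and 1.16 ± 0.16 (limma adjusted p = 0.000107, 0.00848 and 0.000548). Its interaction was -1.10 ± 0.23 (limma adjusted p = 0.033). Among the hexokinases Hk1 was higher in the groups without Men1 (0.73 and 0.57) and not called in the Rbp2 knockout (0.49, limma adjusted p = 0.0998). Under quantile and cyclic loess normalization Hk1 was not called in the double knockout (0.29 and 0.28, limma adjusted p = 0.157 and 0.171), and under cyclic loess it was 0.45 in the Men1 knockout, still called. Hk3 was called lower in the Men1 knockout (-0.33) but was near 0 under cyclic loess normalization (-0.01) and with the array median as a covariate (0.03).

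Of 16 other glycolysis enzymes 6 were higher and 4 lower in the Men1 knockout, 2 and 0 in the Rbp2 knockout, and 4 and 1 in the double knockout. The aldolase gene Aldoa was called in all 3 knockouts (0.44, 0.64 and 0.57), and under cyclic loess normalization it was 0.16, 0.38 and 0.28 and not called in the Men1 knockout (limma adjusted p = 0.187). Aldoc, another aldolase, was higher in the groups without Men1 (0.85 and 0.54) and not called in the Rbp2 knockout (0.21, limma adjusted p = 0.277). Pklr, a pyruvate kinase, was higher in the Men1 knockout (0.55) and not called in the others (-0.10 and 0.18). Fbp1, a gluconeogenic enzyme, was called lower in both groups without Men1 (-0.33 and -0.31), but not under quantile normalization (-0.15 and -0.17) or cyclic loess normalization, where it was near 0 (-0.01 and -0.09, limma adjusted p = 0.964 and 0.643). In glutamate metabolism, Glul, glutamine synthetase, and Hadh, an inhibitor of glutamate dehydrogenase, were higher in all 3 knockout groups. Hadh changed by 0.57, 0.62 and 0.56 and Glul by 0.48, 0.73 and 0.70, and the list of 7 had 2 higher and 2 lower, 2 and 0, and 2 and 3. Cyclic loess normalization lowered Hadh to 0.21, 0.27 and 0.18 and Glul to 0.20, 0.46 and 0.40, and neither Glul in the Men1 knockout (limma adjusted p = 0.171) nor Hadh in the double knockout (limma adjusted p = 0.0834) was then called. Among 6 regulators, 2, 3 and 3 were higher and 1, 0 and 0 lower. Txnip, a glucose-induced inhibitor of glucose uptake, was lower in the Men1 knockout (-0.63 ± 0.24, limma adjusted p = 0.0378) and higher in the Rbp2 knockout (0.80 ± 0.23, limma adjusted p = 0.0343). The latter was not called under quantile or cyclic loess normalization (0.66 and 0.60, limma adjusted p = 0.0687 and 0.103). The RIP-Cre mean of Txnip, 10.43, was below that of wt, 11.02 (-0.58 ± 0.24, not called). The Rbp2 knockout mean, 11.23, was closer to wt than to RIP-Cre, and the Men1 knockout mean, 9.81, was below both.

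In the interaction, 5 of the 91 genes were called beside 3.39% of all genes. Slc2a3 was higher (0.55), and G6pc2, Me2, Got1 and Slc25a12 were lower (-1.10, -0.69, -0.62 and -0.59). These 4 enzymes and carriers were higher in at least 1 single knockout, and in the double knockout they were less than the sum of the single changes. All 5 kept their sign under the 3 scalings, 2 were called under cyclic loess normalization (G6pc2 and Me2) and 0 with the array median as a covariate. Slc2a3 was 0.26 under cyclic loess normalization (limma adjusted p = 0.169). The interaction of all genes also depended on intensity, with a median of 0.198 over all of them and -0.184 in the highest intensity group. In the intensity group from 6.71 to 7.13, which holds Slc2a3, the median was 0.357.

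Genes with the pattern most like a called member were found by the root mean square difference of centred log2 values over the 17 arrays. For Slc2a2 they were Gpr158 (0.143), Elovl5 (0.148) and Capn7 (0.148), where Slc2a2 itself had an SD of 0.41 over the arrays. For Pfkm they were Fancm (0.0731), Glb1 (0.0791) and Rnf19a (0.0794), beside an SD of 0.176. For Slc2a1 they were Ptpn6 (0.0747), Tmed8 (0.0818) and Ccdc25 (0.0825), beside an SD of 0.138. Pdha1 was followed most closely by Idh3a (0.0705), a subunit of NAD-dependent isocitrate dehydrogenase, then by Rabac1 (0.0758) and Atp6v1h (0.0766), beside an SD of 0.333. Idh3a had group means of 8.83 in wt, 8.72 in RIP-Cre, 9.39 in the Men1 knockout, 9.31 in the Rbp2 knockout and 9.40 in the double knockout.

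Some markers of beta cells were also higher in the knockouts. All 10 markers were measured, and 6 were called higher in the Men1 knockout, 2 in the Rbp2 knockout and 5 in the double knockout, with 0 lower in each. Of all genes in the highest intensity group, 40.7%, 25.7% and 39.8% were called higher in the same comparisons. The mean of the 10 was 11.66 to 12.10 on the RIP-Cre arrays, 11.75 to 12.06 in wt, 12.32 to 12.36 in the Men1 knockout, 12.10 to 12.28 in the Rbp2 knockout and 12.18 to 12.27 in the double knockout. Of the 10, Glp1r, the GLP-1 receptor, had the largest change (1.29, 0.65 and 1.16), whereas Ins2, the insulin 2 gene, was not called (0.12, 0.04 and 0.08), nor was Mafa (-0.15, -0.07 and -0.26). Alpha cell markers, 4 of 6 measured, averaged 10.42 to 10.88 in RIP-Cre and 10.09 to 10.22 in the Men1 knockout, and 2 were called lower there. These were Irx1 and Irx2 (-1.06 and -1.07), whereas Gcg and Slc7a2 were not called (-0.14 and 0.24, limma adjusted p = 0.479 and 0.166). Acinar markers, 8 of 10 measured, ranged from 8.15 to 10.20 within RIP-Cre and from 8.47 to 10.07 within the Men1 knockout, and 1 was called, lower. Endothelial markers averaged 9.64 or more on each array of the Rbp2 knockout against 9.46 to 9.70 on the RIP-Cre arrays, with 3 of 8 called higher. In both groups without Men1, 1 of the 8 endothelial markers was called higher and 3 lower. In the Men1 knockout 3 of 5 duct markers and 5 of 6 skeletal muscle markers were called lower, and 2 of 7 macrophage markers were higher and 1 lower. In the double knockout these counts were 1 lower for duct, 4 lower for skeletal muscle, and 2 higher and 0 lower for macrophages. Duct and skeletal muscle markers averaged 8.24 and 7.63 in RIP-Cre. In the intensity groups from 7.13 to 8.40, 54.3% to 58.5% of all genes were called in the Men1 knockout, with 5.42% to 14.8% higher. In the double knockout 28.2% to 37.1% of these genes were called, with 3.71% to 10.3% higher. Most calls at this level were thus lower, whatever the gene. The part of these cell types in the changes of the members was not tested.

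**Figure D5:**
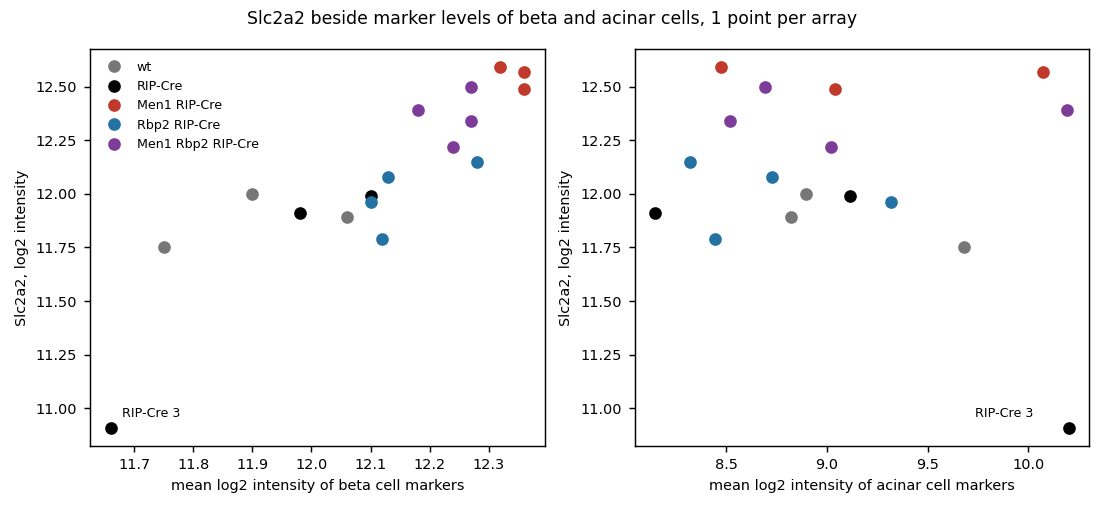
Each point is 1 of the 17 arrays, coloured by group, with the log2 intensity of Slc2a2 on the vertical axis and the mean log2 intensity of 10 beta cell markers (left) or 8 acinar markers (right) on the horizontal axis. RIP-Cre array 3, at 10.91 for Slc2a2, has the lowest beta cell mean and the highest acinar mean, while Men1 knockout array 1, with an acinar mean of 10.07, reads Slc2a2 at 12.57.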

How the data were processed

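Islet RNA was measured on 17 arrays in 5 groups read from the sample titles. The authors deposited log2 intensities of 35512 probe sets. How these were corrected for background and scaled is not given in the sources used here. Platform annotation names 1 gene for 21789 probe sets, several for 1621 and none for 12102, and 21698 of the first kind were matched to RefSeq genes. A gene was represented by its single-gene probe set with the highest mean, which gave 19938 genes. For 999 genes this chose among several.

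A model of 5 group means over the 17 arrays was fitted in limma 3.58.1 (R 4.3.3), and eBayes moderated the variances, with Benjamini-Hochberg adjustment over all genes of each of 7 comparisons. Standard errors are those of the fit. The procedure was tested on simulated data. The number of arrays limits the precision. No pair of arrays held the same values (smallest root mean square difference 0.357).

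The members, lists and alternatives were chosen with earlier results of these data known. Named genes are all 9 members, Men1 and Kdm5a, the called genes with the 2 highest and 2 lowest moderated t values of each list and comparison, and the 3 closest patterns of each called member. Predicted, receptor and small RNA genes were left out of the last. Pdhb, Pdp1, Mpc1, Dld, Pdhx, Dlat, Pdk1, Pdk3, Hk1 and the marker genes, named where their subunit or role is described, and single values of rule-named genes in other comparisons, were chosen after their values were seen. So were Slc2a12, Slc5a1, Idh2, Idh3g, Ogdh and Sdhb, named where the scaling of their list is described. The alternatives were 3 scalings, a filter at the 25th percentile of level, other variance and probe set choices, wt as the control or part of it, only the arrays compared, a replicate block, 3 control arrays with high medians left out, and each array left out.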

Additional observations from a re-analysis of the deposited data

How the results depend on the processing

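The number of called members was recomputed under 29 alternatives. In the Men1 knockout against RIP-Cre it was 3, and became 4 (3 higher and 1 lower) with wt and RIP-Cre pooled and 0 with the array median as a covariate. In the Rbp2 knockout against RIP-Cre it was 1, and became 0 with the array median as a covariate and 2 with the filter on dim genes, with an intensity trend and robust variances, or with wt and RIP-Cre pooled. In the double knockout against RIP-Cre it was 4, and became 5 with the same filter, trend or pooled control, 2 with only the arrays compared, quantile or cyclic loess normalization, or 3 control arrays with high medians left out, 1 with wt in place of RIP-Cre, and 0 with the array median as a covariate. In the interaction it was 0, and became 1, Pdha1, with only the arrays compared, the filter or the trend. Leaving out 1 array at a time gave 3 to 4, 0 to 2, 2 to 5 and 0 to 1 called members in these 4 comparisons. The cause of these changes was not tested.

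With the replicate block the counts were 4 in the Men1 knockout, adding Hk2 (-0.46, limma adjusted p = 0.0416), 1 in the Rbp2 knockout and 3 in the double knockout, without Slc2a1 (0.24, limma adjusted p = 0.074). Deviations of arrays of the same number in different groups had a median correlation of 0.0107, over 0.1 in 10 of 31 pairs and 0.449 at most. For arrays of different numbers the median was -0.00537, over 0.1 in 21 of 84 pairs and 0.475 at most. Whether some arrays of the same number share a batch cannot be told from these medians. Over 1755 values of single members none that was called changed sign, 35 lost and 20 gained a call. Most of the 1755 could not lose a call. Only 3, 1 and 4 members were called on the deposited values, in the Men1, Rbp2 and double knockout against RIP-Cre. Among uncalled values, 36 with 1 array left out and 33 under the other alternatives moved to another sign or away from 0. Without RIP-Cre array 3 the calls over all genes fell to 6174 in the Men1 knockout, 223 in the Rbp2 knockout and 2371 in the double knockout, from 10660, 2672 and 6716. With 3 or 4 arrays a group, a call depended on the standard error as well as on the size of a difference. In the Men1 knockout Hk2 at -0.46 ± 0.21 was not called, and Pfkm at 0.45 ± 0.09 was. In the double knockout Glud1 at 0.27 ± 0.11 was not called, and Slc2a1 at 0.26 ± 0.09 was.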
